A study of Mus musculus with 6 samples.

Results

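A set of 10 genes for costimulation and TNF receptor signalling between thymic epithelium and T cells was followed through 6 RNA sequencing libraries of medullary thymic epithelial cells (mTECs). They were chosen by symbol: the costimulatory and coinhibitory ligand genes Cd80, Cd86, Icosl and Cd274, the surface molecule gene Cd83, and the receptor genes of the tumour necrosis factor (TNF) family Cd40, Tnfrsf11a, Ltbr, Tnfrsf4 and Tnfrsf9. All 10 were found among the 20443 gene symbols of the deposited tables, and all 10 were among the 15720 genes tested. Per the labels, the mTECs were sorted by flow cytometry from C57BL/6 mice aged 4 weeks. The control group was Jmjd3fl/fl without Cre (libraries Con_253, Con_261 and Con_264), and the Jmjd3-deficient group was Jmjd3fl/fl with Foxn1-cre (cKO_262, cKO_263 and cKO_265), each library carrying its own mouse number. Both groups therefore share the floxed alleles. Foxn1-cre acts in all thymic epithelium rather than in mTECs alone, and an effect of the Cre construct itself cannot be told apart from that of Jmjd3, the histone H3 lysine 27 demethylase encoded by Kdm6b.

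Mature mTECs carry ligands of the B7 family, which T cells read through CD28, CTLA-4, ICOS and PD-1 while they are tested against self-antigens. In the other direction, developing T cells and other lymphoid cells carry TNF family ligands that bind RANK (encoded by Tnfrsf11a), CD40 and the lymphotoxin beta receptor (Ltbr) on mTECs. These receptors signal through TRAF adaptors to NF-kB, a route known to drive the growth and maturation of the thymic medulla. OX40 (Tnfrsf4) and 4-1BB (Tnfrsf9) are best known as costimulatory receptors of activated T cells.

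Start-site sequences are shown first for 3 of the 5 members that were higher in every deficient library than in any control. RefSeq windows (GRCm38.p6, the same assembly as the mm10 build of the files) were found for 7 of the 10 members, in 8 windows, and of those 5 members Icosl, Tnfrsf4 and Tnfrsf9 were among the 7, and Cd40 and Cd83 were not. Each run is the 250 bases before the start, 5′ to 3′ on the plus strand, with capitals for matches to the searched motifs.
Icosl, chr10:78069118-78069367: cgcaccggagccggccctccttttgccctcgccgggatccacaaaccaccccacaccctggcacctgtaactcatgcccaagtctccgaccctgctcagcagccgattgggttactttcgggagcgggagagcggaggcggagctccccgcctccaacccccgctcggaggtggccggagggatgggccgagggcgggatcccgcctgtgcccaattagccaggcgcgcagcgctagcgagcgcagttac
Tnfrsf4, chr4:156013445-156013694: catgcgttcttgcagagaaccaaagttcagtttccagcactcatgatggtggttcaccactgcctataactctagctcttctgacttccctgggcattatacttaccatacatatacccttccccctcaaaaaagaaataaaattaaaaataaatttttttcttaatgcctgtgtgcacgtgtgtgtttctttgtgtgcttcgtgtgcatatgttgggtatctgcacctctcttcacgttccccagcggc
Tnfrsf9, upstream start, chr4:150919905-150920154: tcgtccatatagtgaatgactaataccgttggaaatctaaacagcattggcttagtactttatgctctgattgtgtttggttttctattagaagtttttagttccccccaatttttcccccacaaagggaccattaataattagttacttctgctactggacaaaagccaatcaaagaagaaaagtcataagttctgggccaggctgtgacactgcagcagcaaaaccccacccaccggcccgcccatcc
Tnfrsf9, downstream start, chr4:150927749-150927998: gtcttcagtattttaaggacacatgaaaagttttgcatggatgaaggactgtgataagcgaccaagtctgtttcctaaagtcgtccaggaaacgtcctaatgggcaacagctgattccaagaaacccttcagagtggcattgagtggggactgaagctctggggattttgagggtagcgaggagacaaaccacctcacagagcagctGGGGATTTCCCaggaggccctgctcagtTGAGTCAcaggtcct

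The motifs were searched on both strands: the kappaB consensus bound by NF-kB, the AP-1 motif TGANTCA and the interferon regulatory factor motif GAAANNGAAA. The downstream window of Tnfrsf9 held 2 kappaB matches that overlap each other, GGGGATTTCC and GGGATTTCCC, the first beginning 43 bases before the start, and the AP-1 match TGAGTCA beginning 15 bases before it. Among all 32851 RefSeq windows of this length, 3.90% held a kappaB match, 6.75% an AP-1 match and 2.98% an interferon regulatory factor match. The motifs were chosen after the promoters were seen, so these shares do not test whether the matches are unusual. The upstream window of Tnfrsf9 and those of Icosl and Tnfrsf4 held no match to these letters. Of the members not printed, Cd80 held the AP-1 match TGATTCA beginning 42 bases before its start, and Cd274, Tnfrsf11a and Ltbr held none. The windows also differed in base composition. That of Icosl was 68.8% G and C with 23 CpG dinucleotides, whereas those of Tnfrsf4 and Tnfrsf9 were 42.8% to 49.6% G and C with 4 or 5 CpG, against medians of 52.4% and 6 over all windows. A match describes the sequence only, and binding was not measured.

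Levels were deposited as FPKM, mapped fragments scaled to transcript length and library size, and sequencing depth is unknown. Summed FPKM lay between 461152 and 543156 in the controls and between 582835 and 641060 in the deficient libraries. Every deficient total was thus above every control total, although the median log2 fold change over all tested genes was -0.04. The 10 members together summed to 559 to 565 FPKM in the controls and 645 to 672 FPKM in the deficient libraries. The part of the difference in totals in the values of single members was not tested, and alternative scalings are given below. On the first principal component, which held 42.8% of the variance, cKO_265 stood apart at 53.0 against -22.7 to 7.42 for the others. Values with and without this library are therefore given where it matters. Every control was below every deficient library on this component, with Con_264 at -9.87 and cKO_262 at -6.74 the closest. The targeted gene Kdm6b was at 18.1, 17.1 and 9.998 FPKM in control and 11.1, 11.6 and 8.67 FPKM in the deficient libraries. Its groups overlapped, and whether its reads fell inside the deleted part was not tested, so it does not check the labels. Con_253 alone had a clear level of the Y-linked gene Eif2s3y, 7.88 FPKM, where no other library was above 0.0409 FPKM. The Y-linked gene Ddx3y was likewise at 2.22 FPKM there and at no more than 0.0117 FPKM elsewhere. Sex may therefore differ within the control group, and its effect was not tested. Epcam, which marks epithelium, was at 751 to 945 FPKM and the mTEC regulator gene Aire at 230 to 504 FPKM, so defining markers of the labelled cell type were present.

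All 10 genes were well expressed. Their values ran from 9.10 FPKM (Tnfrsf4 in Con_261) to 193 FPKM (Cd40 in cKO_262), which placed them between percentile 57.5 and percentile 97.2 of tested genes in their libraries. In the controls the order of mean levels was Cd40, Icosl, Cd274, Tnfrsf9, Cd80, Cd83, Tnfrsf11a, Ltbr, Cd86 and Tnfrsf4. The ranges of Cd274, Tnfrsf9 and Cd80 overlapped from neighbour to neighbour, as did those of Cd83, Tnfrsf11a and Ltbr, so the order within each of these trios was not separated by the spread. The other neighbours did not overlap. Cd40 was the highest and Icosl the second highest of the 10 in every library of both groups. In the deficient libraries Tnfrsf9 ranked 3, clear of Cd274 and of Cd80, and Tnfrsf4, the lowest member in all 3 controls, overlapped Ltbr, which in turn overlapped Cd86.

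**Figure D1:**
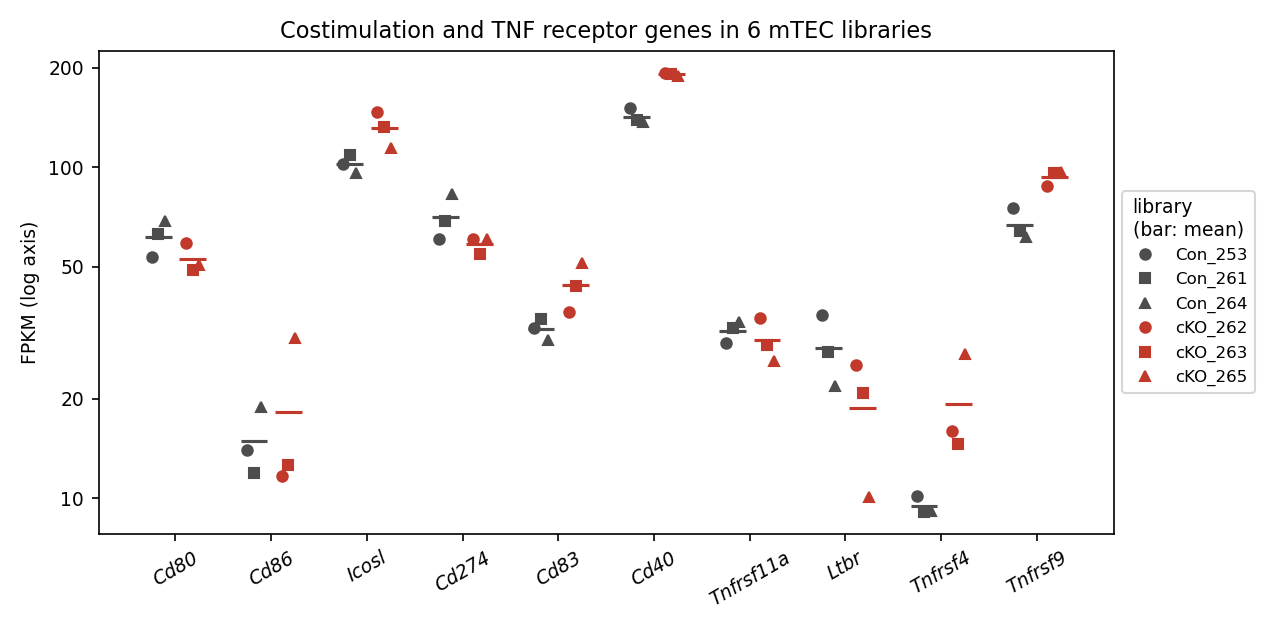
FPKM (log axis) of each of the 10 genes in the 3 control (grey) and 3 Jmjd3-deficient (red) libraries, with a bar at each group mean. Cd40, Icosl, Cd83, Tnfrsf4 and Tnfrsf9 lie higher in every deficient library than in any control, while Cd86, Ltbr and Tnfrsf4 are most widely spread, with cKO_265 at one end.

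None of the 10 genes passed the test between the groups at an adjusted p under 0.05 (limma on log2(FPKM + 1), adjusted over all tested genes), where 12 genes passed, 0.0763% of those tested (0.0191% higher and 0.0573% lower). Adjusted p-values of the 10 genes lay between 0.163 and 0.866. With library weights (arrayWeights), 4 members passed, as did 3025 of all genes. At an unadjusted p under 0.05, 5 of the 10 were higher and 0 lower in the deficient libraries, against 6.81% of tested genes higher and 7.82% lower. The groups did not overlap for 5 higher members and 1 lower member, against 9.59% and 11.9% of tested genes. The median log2 fold change was 0.26 over the 10 genes and -0.04 over all tested genes. The first was 0.03 with the highest row of each symbol, 0.13 under quantile normalization, 0.15 without cKO_265 and 0.12 without both this library and Con_253. The genes were chosen with earlier results of these data known, so these counts are a description and not an independent test. In bulk RNA, fewer cells of a type and less RNA per cell cannot be told apart.

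Among the ligands, means were lower in the deficient group for Cd80 and Cd274 and higher for Cd86 and Icosl. Cd80, whose protein B7-1 binds CD28 and CTLA-4 and marks mature mTECs, was at 53.5, 62.8 and 69.0 FPKM in control and 58.9, 49.0 and 50.7 FPKM in the deficient libraries. Con_253 and cKO_262 lay within the range of the opposite group. The log2 fold change of -0.22 (SE 0.15, 95% interval -0.56 to 0.13) did not pass (limma adjusted p = 0.541). It was -0.13 without Con_264, -0.14 under median centring and -0.33 under quantile normalization. Cd80 lies on chromosome 16 from 38458933 to 38486932.

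Cd86, whose protein B7-2 binds the same T-cell receptors, is also on chromosome 16, from 36603869 to 36666077, on the opposite strand. It was at 13.98, 11.9 and 18.9 FPKM in control and 11.7, 12.6 and 30.5 FPKM in the deficient libraries. Only cKO_265 was above the control range, and the mean of 18.3 ± 10.6 FPKM against 14.9 ± 3.56 FPKM (SD, n = 3 each) rested on it. The log2 fold change was 0.16 (SE 0.34, limma adjusted p = 0.866) with all libraries and -0.26 (limma adjusted p = 0.601) without cKO_265. It was 0.03 without Con_261 and between 0.34 and 0.40 without Con_264, cKO_262 or cKO_263. Its 95% interval, -0.61 to 0.94, includes changes in either direction.

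Icosl, which encodes the ligand of the T-cell receptor ICOS, spans chromosome 10 from 78069368 to 78079525. It was at 102, 109 and 96.4 FPKM in control and 147, 133 and 115 FPKM in the deficient libraries. The groups did not overlap, and the gap between cKO_265 and Con_261 was the narrowest. The mean was 28.4% higher in the deficient group, with a log2 fold change of 0.35 (SE 0.14, 95% interval 0.03 to 0.67) that did not pass (limma unadjusted p = 0.0361, adjusted p = 0.301). Under quantile normalization, which gives every library the same distribution of values, it was 0.11 (limma adjusted p = 0.787).

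Cd274 encodes PD-L1, the ligand of the inhibitory receptor PD-1, and spans chromosome 19 from 29367438 to 29388094. It was at 60.9, 69.0 and 82.9 FPKM in control and 60.8, 54.8 and 60.7 FPKM in the deficient libraries. The groups did not overlap, but only by the margin between 60.87 FPKM in Con_253 and 60.80 FPKM in cKO_262. On the log2 scale the difference was -0.26 (SE 0.15, 95% interval -0.60 to 0.09, limma adjusted p = 0.474). It was -0.14 without Con_264 and -0.40 under quantile normalization. GENCODE places an antisense gene over an exon of Cd274, and since strand was not stated, its reads cannot be told apart.

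Cd83, a surface molecule of activated antigen-presenting cells that stabilises MHC class II and CD86 at the membrane and is also made by thymic epithelium, spans chromosome 13 from 43785107 to 43803132. It was at 32.6, 34.9 and 29.96 FPKM in control and 36.6, 43.9 and 51.5 FPKM in the deficient libraries. All 3 deficient libraries were above all controls, cKO_262 by the smallest margin. The log2 fold change of 0.42 (SE 0.16, 95% interval 0.05 to 0.78) did not pass (limma unadjusted p = 0.0306, adjusted p = 0.283), and it was 0.30 without cKO_265.

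Among the TNF receptors, Cd40, Tnfrsf4 and Tnfrsf9 were higher in each deficient library than in any control, whereas Tnfrsf11a and Ltbr overlapped. The median log2 fold change was 0.43 over the 5 receptors and 0.16 over the 5 ligands and surface molecules. The median of the receptors was -0.10 when the highest row of each symbol replaced the sum of its rows, through Cd40, and 0.20 under quantile normalization. That of the ligands was -0.19 without cKO_265 and ran from -0.29 to 0.34 over all alternatives.

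Cd40 encodes the receptor of the T-cell molecule CD40 ligand and spans chromosome 2 from 165055636 to 165071654. Its summed value was 151, 139 and 137 FPKM in the controls and 193, 192 and 189 FPKM in the deficient libraries. All deficient libraries were above all controls, and the coefficient of variation was 0.996% in the deficient group and 5.58% in the controls. The mean was 34.6% higher in the deficient group, with a log2 fold change of 0.43 (SE 0.12, 95% interval 0.15 to 0.71) that did not pass (limma unadjusted p = 0.00758, adjusted p = 0.190). Under quantile normalization it was 0.20 (limma unadjusted p = 0.135).

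This sum was steadier than its parts. Cd40 had 4 rows in each table, all with the same locus, so the tables do not say which transcripts each row stands for. Row 1 was at 19.2, 23.5 and 13.7 FPKM in control and 28.7, 51.5 and 73.8 FPKM in the deficient libraries, without overlap. Row 4, the highest on average, was at 59.9, 62.3 and 86.1 FPKM in control and 84.6, 30.2 and 91.7 FPKM in the deficient libraries. Rows 2 and 3 overlapped as well, with 17.5 to 75.6 FPKM and 6.37 to 34.6 FPKM over all libraries. Row 1 took 10.05% to 16.9% of the summed value in the controls and 14.9%, 26.8% and 38.95% in cKO_262, cKO_263 and cKO_265, and row 4 took 15.7% in cKO_263 but 48.4% in cKO_265. Read from row 4 alone, the log2 fold change of Cd40 was -0.15 (limma adjusted p = 0.902). The means of rows 1, 2 and 3 were each higher in the deficient group, whereas the row 4 means were 69.4 (controls) and 68.8 FPKM (deficient).

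**Figure D2:**
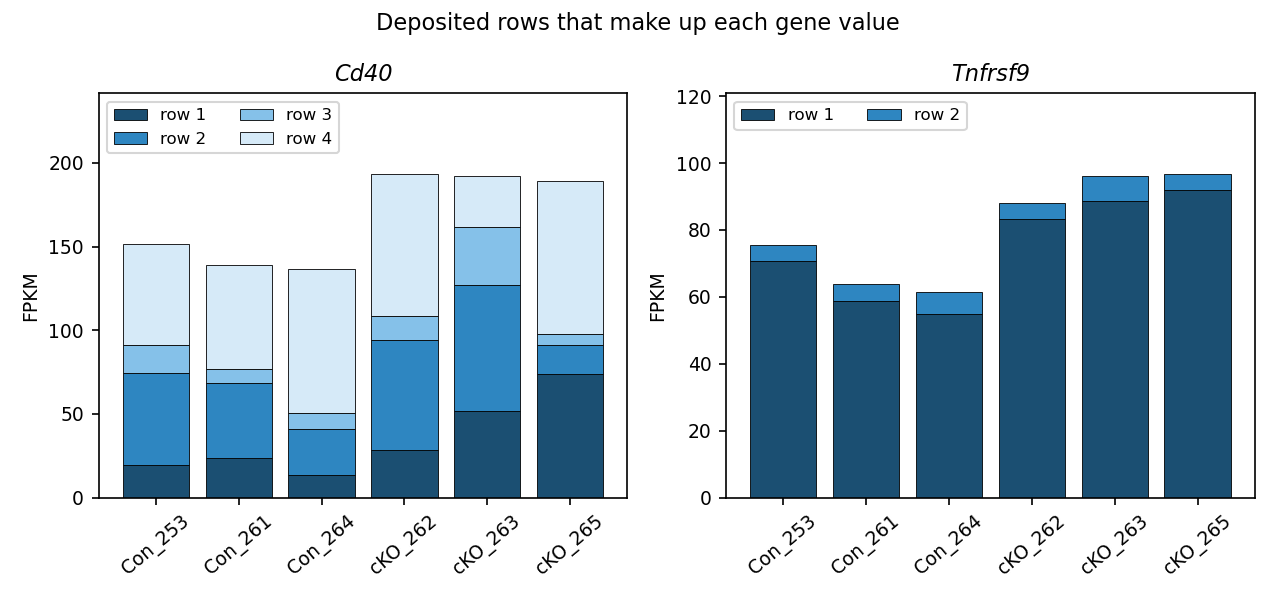
Stacked FPKM of the deposited rows of Cd40 (4 rows) and Tnfrsf9 (2 rows) in each library. The summed height of Cd40 is even within each group, 137 to 151 FPKM and 189 to 193 FPKM, while its rows change places between libraries; Tnfrsf9 is nearly all row 1 in every library.

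Tnfrsf9, on chromosome 4 from 150920155 to 150946102, had 2 rows. Row 1 held 89.1% to 95.1% of the summed value in every library and was at 70.7, 58.7 and 54.9 FPKM in control and 83.4, 88.5 and 91.9 FPKM in the deficient libraries. Row 2 stayed between 4.62 and 7.54 FPKM in all 6 and its groups overlapped. RefSeq gives the gene 2 separate starts, whose windows are printed above, but the shared locus of the rows does not assign either row to a start. The summed values were 75.5, 64.0 and 61.6 FPKM in the controls and 88.0, 96.1 and 96.6 FPKM in the deficient libraries. They did not overlap, and the mean was 39.6% higher in the deficient group. The log2 fold change of 0.48 (SE 0.14, 95% interval 0.17 to 0.79) did not pass (limma unadjusted p = 0.00719, adjusted p = 0.188), and was 0.33 under quantile normalization.

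Tnfrsf4 lies on the same chromosome from 156013695 to 156016589 and had the largest difference of the 10 genes. It was at 10.2, 9.10 and 9.16 FPKM in control and 15.9, 14.5 and 27.3 FPKM in the deficient libraries. The controls were close together, every deficient library was above them, and cKO_265 was far above the other two. The mean was 103% higher, and the log2 fold change of 0.90 (SE 0.23, 95% interval 0.37 to 1.43) did not pass (limma unadjusted p = 0.00400, adjusted p = 0.163). Without cKO_265 it was 0.63, with an SE of 0.15 and a limma adjusted p of 0.162.

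Tnfrsf11a encodes RANK, the receptor through which RANK ligand drives mTEC development, and spans chromosome 1 from 105780723 to 105847981. It was at 29.4, 32.6 and 34.0 FPKM in control and 35.1, 29.1 and 26.0 FPKM in the deficient libraries. The deficient libraries reached both above and below the controls. Its log2 fold change was -0.10 (SE 0.15, limma adjusted p = 0.821), with a 95% interval of -0.45 to 0.26 that includes changes in either direction. It was 0.00042 without cKO_265 and -0.21 without cKO_262.

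Ltbr encodes the lymphotoxin beta receptor, which acts in the organisation of the medulla, and spans chromosome 6 from 125306571 to 125313870. It was at 35.8, 27.6 and 21.8 FPKM in control and 25.3, 20.8 and 10.1 FPKM in the deficient libraries. cKO_262 lay within the control range, and cKO_265 was the lowest by a wide margin. With all libraries the log2 fold change was -0.64 (SE 0.32, limma adjusted p = 0.401). It was -0.27 when cKO_265 was left out, -0.09 when Con_253 was left out as well, and -0.89 without cKO_262 (limma unadjusted p = 0.0236, adjusted p = 0.190). Its 95% interval was -1.37 to 0.09.

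**Figure D3:**
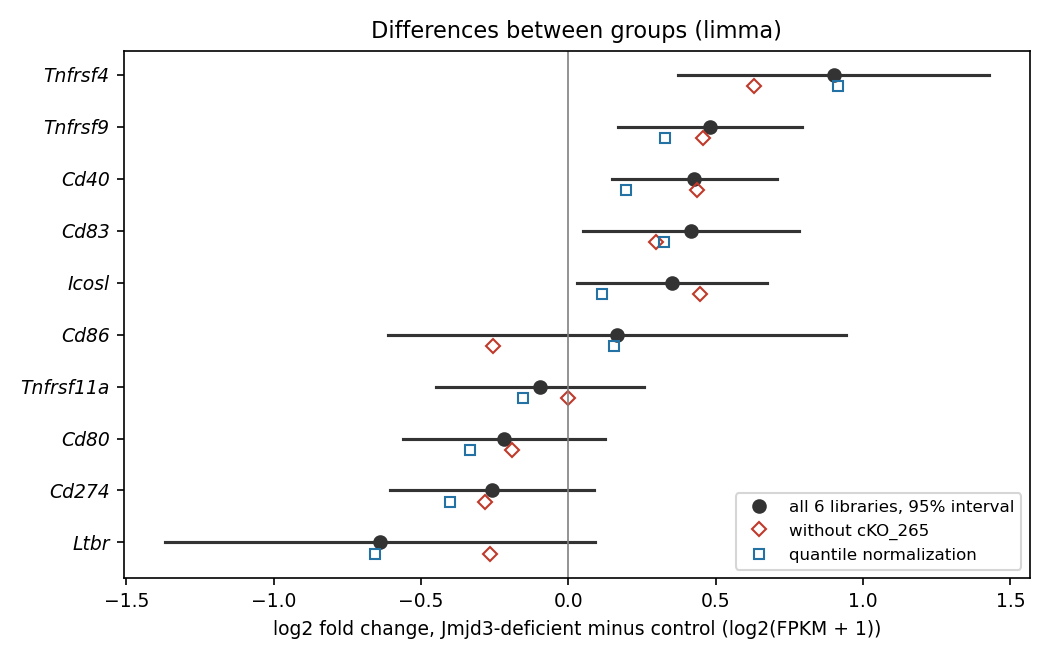
Log2 fold change of each gene with its 95% interval (black), without cKO_265 (red diamonds) and under quantile normalization (blue squares). Tnfrsf4, Tnfrsf9, Cd40, Cd83 and Icosl have intervals above 0 before adjustment; Cd86 changes sign without cKO_265 and Ltbr moves from -0.64 to -0.27.

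Since any scaling between libraries was not given, each gene was also set against Cd80 within its own library, a ratio that no scaling factor of the library can alter. This comparison was added after the data were seen. The ratio of Cd40 to Cd80 was 2.83, 2.21 and 1.98 in the controls and 3.28, 3.92 and 3.73 in the deficient libraries. That of Icosl was 1.91, 1.73 and 1.40 against 2.49, 2.71 and 2.26, and that of Tnfrsf9 was 1.41, 1.02 and 0.893 against 1.49, 1.96 and 1.90. Cd83 and Tnfrsf4 likewise had higher ratios in all deficient libraries, with 0.434 to 0.609 against 0.621 to 1.02 for Cd83 and 0.133 to 0.190 against 0.270 to 0.538 for Tnfrsf4. For these 5 genes an exact permutation test (2-sided) gave p = 0.1, the smallest that 3 against 3 libraries allow, and 0.18 after Benjamini-Hochberg adjustment over 9 ratios. Cd274 kept nearly the same ratio in both groups, 1.10 to 1.20 against 1.03 to 1.20, and the ratios of Cd86, Tnfrsf11a and Ltbr also overlapped (exact permutation p of 0.3 to 0.7 for these 4). Cd80 itself was on average lower in the deficient libraries, which adds to each ratio.

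**Figure D4:**
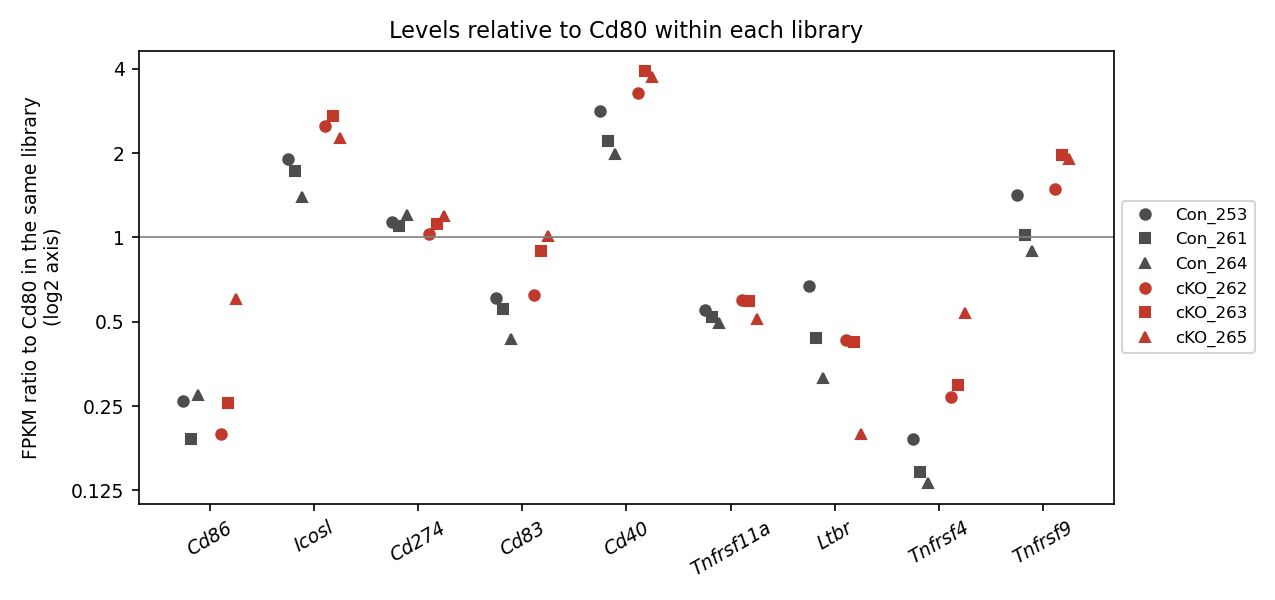
FPKM of each gene divided by that of Cd80 in the same library (log2 axis), controls in grey and deficient libraries in red. Icosl, Cd83, Cd40, Tnfrsf4 and Tnfrsf9 do not overlap between the groups, while Cd274 stays between 1.03 and 1.20 in all 6 libraries.

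The genes with a profile most like that of Cd80 over the 6 libraries were Mak, Zfp398, Scamp1, Pkp4 and Acnat1. Their centred log2(FPKM + 1) values differed from those of Cd80 by a root mean square of 0.03 to 0.04. Cd80 itself varied little, so many genes of low variation come close to it.

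The relatives and partners of the 10 genes came from lists written from general knowledge. No gene of these lists passed the test (limma). Among all 15720 tested genes, 7123 had higher and 8597 lower values. At an unadjusted p under 0.05 (limma), 6.81% of tested genes were higher and 7.82% lower. Of the 9 tested members of the other B7 and costimulatory list, 5 had higher and 4 lower values, 0 and 2 of them at an unadjusted p under 0.05, with a median log2 fold change of 0.02. Cd48, an adhesion ligand of lymphoid cells, was at 4.41, 3.27 and 3.96 FPKM in control and 2.04, 1.52 and 1.19 FPKM in the deficient libraries (log2 fold change -0.92, limma adjusted p = 0.125). Tnfrsf14, which encodes the herpesvirus entry mediator and is in the TNF receptor list too, was at 7.99, 11.5 and 3.49 FPKM against 3.48, 3.24 and 2.35 FPKM (log2 fold change -0.99, limma adjusted p = 0.244). Its groups were separated only by 3.485 FPKM in Con_264 and 3.483 FPKM in cKO_262. Lgals9 was at -0.26 on the log2 scale and at -0.15 without cKO_265. Cd70 was at 0.29, with 0.12 without Con_264 and 0.50 without Con_261.

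The other TNF receptors had 7 higher and 14 lower values among 21 tested, with a median of -0.12, beside 0.43 for the 5 receptor members. At an unadjusted p under 0.05, 2 were higher and 4 lower. The nerve growth factor receptor gene Ngfr was at 13.6, 13.2 and 11.2 FPKM in control and 9.14, 5.77 and 6.15 FPKM in the deficient libraries (log2 fold change -0.79, limma adjusted p = 0.152). The death receptor genes Tnfrsf21 and Tnfrsf1a were at -0.56 and -0.59, Tnfrsf21 without overlap and Tnfrsf1a with it. The 2 higher genes, named after their values were seen, were the death receptor gene Fas (log2 fold change 0.65, limma adjusted p = 0.275) and Tnfrsf19 (0.42). Fas was at 0.36 without cKO_265.

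TNF superfamily ligands, of which 16 were tested, had 7 higher and 9 lower values and a median of -0.11. The ligand gene of the member Tnfrsf9, Tnfsf9, was itself abundant, with 82.5, 79.1 and 66.5 FPKM in the controls and 80.9, 79.7 and 120.0 FPKM in the deficient libraries. It overlapped between the groups (log2 fold change 0.27, limma adjusted p = 0.539), and its log2 fold change was 0.08 without cKO_265. The ligand gene of Tnfrsf4, Tnfsf4, was between 1.93 and 3.65 FPKM, and the RANK ligand gene Tnfsf11 was at 0.685 to 0.999 FPKM in control and 0.257 to 0.521 FPKM in the deficient libraries (log2 fold change -0.40, limma adjusted p = 0.332). Cd40lg was at 0.945 to 2.09 FPKM against 0.332 to 1.30 FPKM. The Ltbr ligand genes Lta and Ltb lay at log2 fold changes of 0.40 and -0.57, both with overlapping groups, and Tnfsf12 at -0.47. Lta was at 0.23 without Con_264. Without cKO_265, Ltb was at -0.16 and Tnfsf12 at -0.11, and without Con_264 Ltb was at -0.87. Tnfsf9, Tnfsf4 and Ltb were named as partners of the 10 genes after their values were seen.

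The T-cell partner genes, which were receptors and the ligand gene Cd40lg, were low. The 8 genes summed to 11.0 to 13.5 FPKM in the controls and 6.24 to 12.4 FPKM in the deficient libraries. Of the 7 tested, 1 (Btla) had a higher and 6 a lower value, with a median log2 fold change of -0.21. At an unadjusted p under 0.05 (limma), 1 was higher and 1 lower, against 6.81% and 7.82% of all tested genes. Ctla4 was at 3.41, 5.21 and 5.26 FPKM against 2.16, 3.53 and 1.63 FPKM (log2 fold change -0.73, limma adjusted p = 0.240), and Btla at 0.241 to 0.745 against 0.747 to 1.53 FPKM. Cd28 was below 1 FPKM in every library.

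The 24 tested genes of the TRAF and NF-kB relay had 8 higher and 16 lower values and a median of -0.11. At an unadjusted p under 0.05 (limma), 2 were higher and 3 lower, against 6.81% and 7.82% of all tested genes. Both of the higher ones encode inhibitors of NF-kB, but so does Tnfaip3, 1 of the 3 lower. Nfkbie, which encodes I-kappaB epsilon, was at 290.0, 306 and 245 FPKM in control and 412, 436 and 422 FPKM in the deficient libraries (log2 fold change 0.60, SE 0.14, limma adjusted p = 0.135). Nfkbia, which encodes I-kappaB alpha and was named after its values were seen, was at 1674, 1614 and 1346 FPKM against 1866, 2062 and 2234 FPKM (log2 fold change 0.41, limma adjusted p = 0.289). Under quantile normalization they were at 0.31 and 0.01. In contrast, the deubiquitinase gene Tnfaip3, a further brake on NF-kB, was lower in every deficient library than in any control. It was at 38.6, 42.4 and 47.8 FPKM against 30.3, 29.6 and 37.5 FPKM (log2 fold change -0.39, limma adjusted p = 0.288). The adaptor gene Traf5 was at -0.51 without overlap and the subunit gene Rel at -0.63 with it.

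The medians of the related lists moved with the settings. Over all alternatives that of the other B7 and costimulatory genes ran from -0.04 to 0.10, and that of the other TNF receptors from -0.20 to -0.04. That of the TNF ligands ran from -0.16 to 0.11, turning to 0.11 for genes of at least 5 FPKM and to 0.02 under quantile normalization. The T-cell partners ran from -0.49 with a pseudocount of 0.1 to -0.06 under quantile normalization, and the relay from -0.15 to -0.02.

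**Figure D5:**
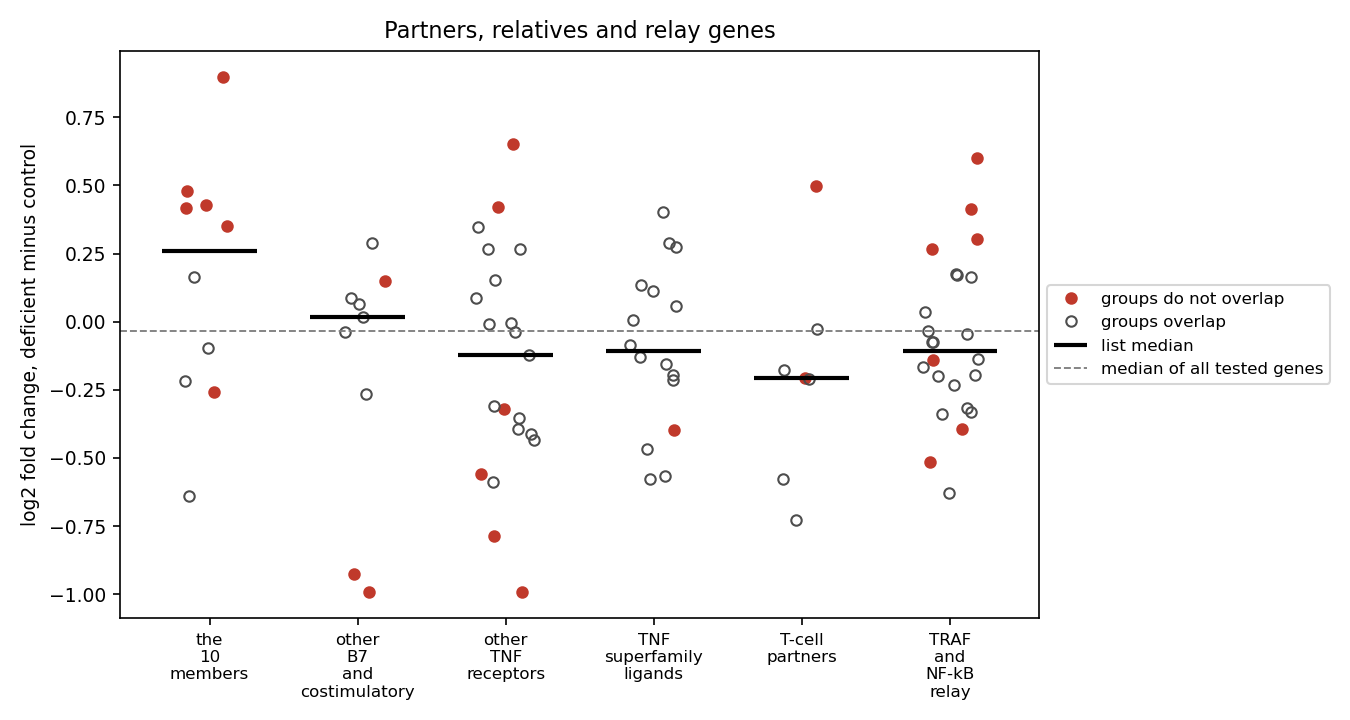
Log2 fold change of every tested gene of the 10 members and of 5 related lists (points, red where the 3 libraries of each group do not overlap), with each list's median as a bar. The median is 0.26 for the members and lies between -0.21 and 0.02 for the related lists.

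These genes are also expressed by other cells of the thymus, so markers of such cells were read beside them. For comparison, 7123 of all 15720 tested genes had higher and 8597 lower values. At an unadjusted p under 0.05 (limma), 7.82% of tested genes were lower. Of 10 thymocyte genes tested, 9 had lower values in the deficient libraries, and the summed level of the 13 listed was 57.3 to 93.2 FPKM in the controls and 42.8 to 52.8 FPKM in the deficient libraries. Of the 10, 5 were lower at an unadjusted p under 0.05, among them Cd3e, Cd3g, Cd4 and Cd8b1 at log2 fold changes of -1.06, -0.80, -0.72 and -1.07. Cd4 was at -0.44 without cKO_263 and Cd8b1 at -0.71 without cKO_265. Cd3e lay at 0.219 to 2.66 FPKM, and its log2 fold change was -2.05 with a pseudocount of 0.1. Thy1, the most abundant, was at 14.1 to 22.7 FPKM in the controls and 11.2 to 14.2 FPKM in the deficient libraries. Dendritic cell genes matter for Cd80, Cd86, Cd83 and Cd40. The dendritic genes summed to 86.3 to 103 FPKM in the controls and 86.5 to 101 FPKM in the deficient libraries. Most of each sum was Ccr7, the most abundant, at 54.4 to 75.9 FPKM. The sums therefore say little of the other dendritic genes. Of the 7 dendritic genes tested, 4 had lower values, 2 of them at an unadjusted p under 0.05. These were Itgae (-0.48 on the log2 scale, at 0.387 to 1.35 FPKM) and Sirpa (-0.51, or -0.34 without cKO_265). The other lower genes were Zbtb46 (-0.32) and Xcr1 (-0.16). All 4 were lower in every deficient library than in any control, against 11.9% of all tested genes. Flt3, Ccr7 and Batf3 had higher values, at 0.22, 0.14 and 0.14, with overlapping groups. Zbtb46, Xcr1, Flt3 and Batf3 were named after their values were seen. The list median of -0.16 turned to 0.14 for genes of at least 5 FPKM. The dendritic integrin gene Itgax, below the filter and named after its values were seen, was at 0.355 to 0.935 FPKM against 0.204 to 0.497 FPKM. The B-cell receptor gene Cd79b, the most abundant of the B-cell genes, was at 29.2 to 42.2 against 33.0 to 48.3 FPKM, and its groups overlapped. The B-cell genes Cr2 and Pax5 were at log2 fold changes of 0.47 and -0.44, or 0.29 and -0.26 without cKO_265. Pax5 was at -1.48 with a pseudocount of 0.1, so the size of its difference depended on that setting. Macrophage genes had 7 of 7 lower values and summed to 373 to 431 against 282 to 319 FPKM, most of it from Lyz2 (log2 fold change -0.40). Mertk, at 0.128 to 1.04 FPKM over all libraries, had a log2 fold change of -0.48, or -1.30 with a pseudocount of 0.1. Endothelial and fibroblast genes had 1 higher and 7 lower values among 8 tested, a median of -0.27 and a sum of 34.6 to 42.3 against 29.5 to 34.9 FPKM. The endothelial genes Pecam1 and Tek were at -0.55 and -0.33, and Dcn, the most abundant, was at 15.6 to 23.6 against 11.8 to 20.04 FPKM. Cortical epithelial genes had 3 higher and 3 lower values among 6 and summed to 314 to 402 against 312 to 366 FPKM. Dll4 and Cxcl12 were at -0.37 and -0.38, and Ctsl, the most abundant, at 251 to 345 against 246 to 291 FPKM. Of the 11 mTEC genes tested, 7 had higher and 4 lower values, with Cldn3 at -0.68 (-0.34 without cKO_265), Aire at 0.40 (0.16 without Con_264) and Cd74, the most abundant, at 7150 to 9024 FPKM over all libraries. None of the listed genes found in the tables was at 0 in all 6 libraries. The part of these cells in the levels of the 10 genes was not tested.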

How the data were processed

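The authors deposited 1 table per library holding FPKM. Bowtie2 2.2.5, Cufflinks and the mm10 build are named by the submitters' processing notes; for the annotation, strand and between-library scaling, no statement was found in the labels. A whole-transcriptome kit amplified the cDNA, per the labels' protocols, which can favour some transcripts by length and base composition. Rows sharing a symbol were summed; 44 rows of 25 symbols that had become dates were left out. Without counts, no counting error is given. The test used limma 3.58.1 (R 4.3.3; eBayes with trend, 2-sided, Benjamini-Hochberg adjustment) on log2(FPKM + 1), which understates changes of low genes, for genes averaging 0.5 FPKM or more. The fit was tested on simulated data with changes larger than those of the 10 genes. Smaller changes were not simulated. The members and lists were chosen with earlier results of these data known, and the motifs after the promoters were seen. Named were all 10 members, in each list the 2 to 4 genes with the smallest p and, of markers, the most abundant, and for Cd80 the 5 genes closest in centred profile, predicted genes left out. RefSeq windows for Cd86, Cd83 and Cd40 were not used here. Alternatives changed the pseudocount (0.1), the filter (none, or 5 FPKM on average), the scaling (quantile or median), the weights (arrayWeights), the rows (highest of a symbol) and the libraries left out. The level of 1 B-cell marker and the sum of that list are not reported here.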

Additional observations from a re-analysis of the deposited data

How the results depend on the processing

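No member passed the test in 13 of the 14 alternatives. With limma's arrayWeights, 4 members passed (Cd40, Icosl, Tnfrsf4 and Tnfrsf9, all higher), but so did 3025 genes in all, and the fit gave Con_261 a weight of 8.72 and cKO_265 one of 0.263. The number of changed genes was 12 as reported, 4 with no filter, and 2 to 23 with 1 library left out (2 without any 1 control, 23 without cKO_262, 19 without cKO_265). With 1 library left out, 0 members passed in each of the 6 fits. The direction turned for Cd40 with the highest row of its symbol (-0.15), and for Cd86 without both Con_253 and cKO_265 (-0.29). With 1 library left out, Cd86 ranged from -0.26 to 0.40 and Tnfrsf11a from -0.21 to 0.00042, both turning without cKO_265. The other 7 members kept their direction in all 14. The number of members higher at an unadjusted p under 0.05 was 2 under quantile normalization (Tnfrsf4 and Tnfrsf9), 3 without any 1 control or cKO_263, and 4 with the highest row of a symbol, without cKO_262, without cKO_265 or without Con_253 and cKO_265 together. The number lower was 3 with arrayWeights, 1 (Ltbr) without cKO_262 and 0 in the rest. No paired analysis was done, since no pairing of control with deficient mice was found in the labels. Depth limits could not be assessed, since the tables hold no counts.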
